A study of Homo sapiens with 5 samples.

Results

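The genes described here encode Polycomb repressive complex 2 (PRC2). They are the alternative catalytic subunits EZH1 and EZH2, the core subunits SUZ12, EED, RBBP4 and RBBP7, and the accessory subunits JARID2, AEBP2, MTF2 and PHF19. They were chosen by symbol and not by their values, because EZH2 is a reported substrate of the deubiquitinase USP17. Earlier results of these data were known when the members and the related lists below were chosen. The 10 members were found among 60651 genes listed, and all 10 passed the filter on low counts (16341 genes tested in all).

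The cells were COLO 320DM, an established human line from a colorectal adenocarcinoma with MYC amplified, and polyadenylated RNA was sequenced after siRNA transfection. The USP17 siRNA group held 3 libraries, each labelled with the name of another siRNA reagent: siIDT, sino4 and siSMPLT. Whether a name stands for 1 duplex or a pool is not stated. The control siRNA group held 2 libraries with the non-silencing siRNAs siL2 and siNT, and the first 3 were assigned to USP17 because the design names only siNT and L2 as controls. No genotype, dose, time after transfection or culture is given in the labels used here, so p-values reflect nothing but how far these libraries spread, which may be technical. The comparison asks whether the mRNA of PRC2 subunits differed after USP17 siRNA, and it says nothing of the proteins.

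PRC2 places methyl groups on lysine 27 of histone H3 (H3K27) and helps to keep developmental genes silent. EZH2 or EZH1 carries the catalytic SET domain, EED and SUZ12 are needed for activity, and RBBP4 or RBBP7 binds histones. Accessory subunits define alternative forms, PRC2.1 with MTF2, PHF19 or PHF1 and PRC2.2 with JARID2 and AEBP2. EZH2 is high in dividing cells and is a target of E2F factors, while EZH1 is also found in cells that do not divide.

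Reads in genes numbered 31704821 to 36276143 per library, and levels are given as CPM (read counts scaled to library size by edgeR's TMM) or, between genes, as TPM (scaled to transcript length as well). The USP17L family could not serve as a check of the siRNAs, since its 26 listed members had 0 reads in all 5 libraries, controls included. Of 12 colon epithelial markers 7 stood at 1 CPM or more in every library, but CEACAM5 had 0 reads and EPCAM only 1.96 to 2.75 CPM. So did 4 of 8 leukocyte, 3 of 8 fibroblast, 1 of 8 neuroendocrine and 0 of 6 endothelial markers stand at 1 CPM or more. Among these were PTPRC (leukocyte, 41.7 to 51.7 CPM) and COL3A1 (fibroblast, 21.7 to 30.4 CPM). Summed, the colon list measured 1815 to 1874 CPM with USP17 siRNA and 2193 to 2271 CPM in the controls, and CDX2 made up most of it. CDX2 fell from 2098 and 2007 CPM to 1639, 1631 and 1686 CPM, while the colon markers CDH17 and GPA33 rose by 0.88 and 1.49 on the log2 scale from lower levels. Reads on no gene were 7.05% to 7.49% of all reads with USP17 siRNA and 6.37% to 6.58% in the controls. Both measures separated the groups, the marker sum through CDX2 alone, and their part in the results below was not tested. In bulk RNA, fewer cells of a type and less RNA per cell cannot be told apart.

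EZH2 was the one member past the threshold and was higher with each USP17 siRNA. The gene lies at chr7:148807383-148884321 on the minus strand (GRCh38, GENCODE release 29). It measured 137, 142 and 134 CPM in siIDT, sino4 and siSMPLT and 102 and 109.7 CPM in siL2 and siNT. Every USP17 library lay above both controls, and the 3 were close to each other. The means were 138 ± 4.34 CPM (SD, n = 3) and 106 ± 5.36 CPM (SD, n = 2), which is 1.3-fold. On the log2 scale the difference was 0.38 ± 0.07 (SE), and edgeR's quasi-likelihood test with Benjamini-Hochberg adjustment gave an adjusted p of 0.019. The controls differed from each other by 0.10 on the log2 scale. The call did not hold without siIDT (log2 fold change 0.38, adjusted p 0.0707, edgeR) and without sino4 (0.36, adjusted p 0.116, edgeR). It held without siSMPLT (0.40, adjusted p 0.043, edgeR), and the cause of the losses was not tested.

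A single call among 10 members is 10% of them, and 10.5% of all tested genes were called. The share of all tested genes called higher was 4.64% and called lower 5.82%, and no member was called lower. The groups did not overlap in CPM for 5 of the 10 members, against 45.9% of all tested genes. For 4 members the USP17 libraries were the higher ones, a pattern that 23.3% of all tested genes showed. The fold changes of 9 members were above 0, with a median log2 fold change of 0.15 for the list and 0.01 for all tested genes, of which 50.7% were above 0. Counted in either direction the shares lie near those of all genes, while 10% called higher and 40% higher without overlap rest on 1 and 4 genes of a list of 10.

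**Figure D1:**
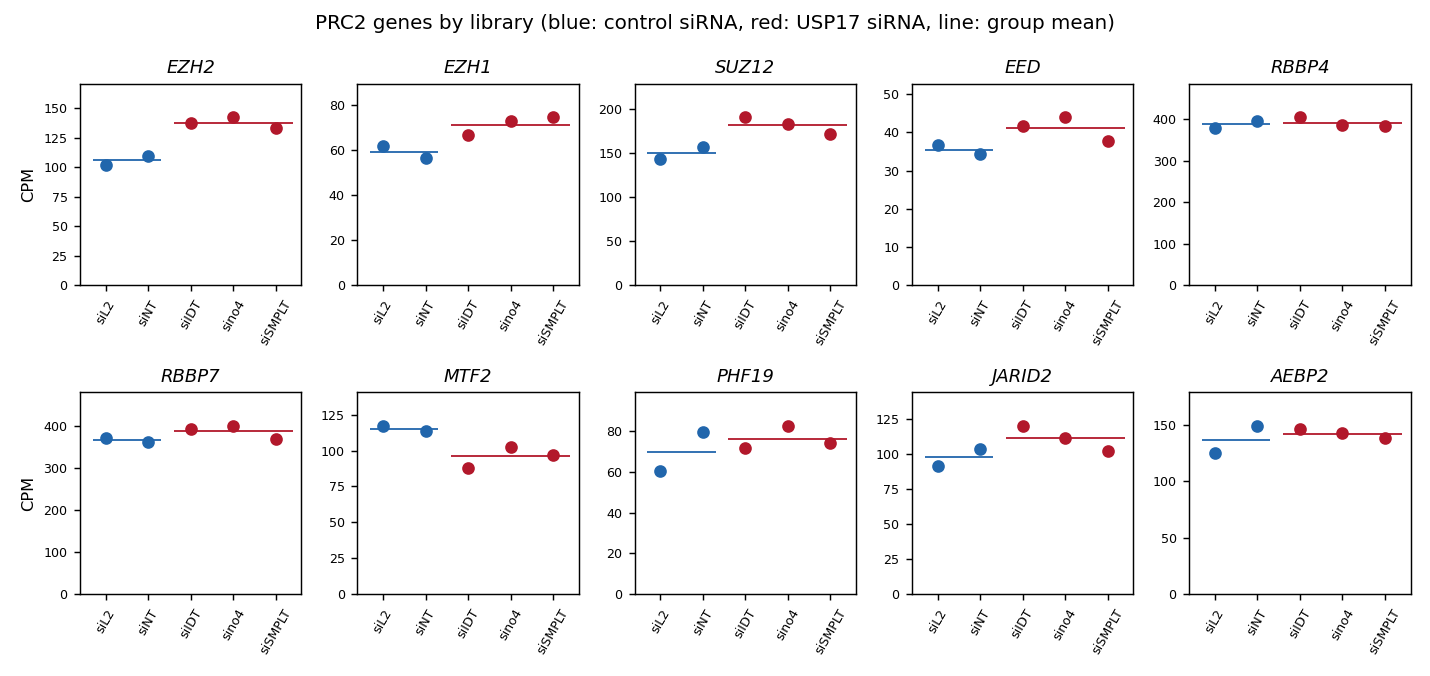
CPM of each PRC2 member (panels, vertical axis from 0) in the 5 libraries, with points for single libraries and lines for group means. EZH2, EZH1, SUZ12 and EED lay higher in all 3 USP17 siRNA libraries than in both controls, MTF2 lay lower, and the other 5 members overlapped.

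EZH1, the other catalytic subunit, stood at 66.5, 72.8 and 74.6 CPM in siIDT, sino4 and siSMPLT and was lower, at 61.8 and 56.7 CPM, in siL2 and siNT. The groups did not overlap, but siIDT lay close to siL2. Its log2 fold change of 0.27 ± 0.09 (SE) did not pass (adjusted p 0.0853, edgeR), but did without siL2 (0.33, adjusted p 0.0494, edgeR). Per length EZH2 was the more abundant of the pair in every library, with an EZH2 to EZH1 ratio of TPM of 2.15, 2.01 and 1.95 with USP17 siRNA and 1.72 and 2.17 in siL2 and siNT. These ratios overlapped between the groups (two-sided exact permutation p of 0.8, and 0.8 after adjustment over 4 ratios tested). With 3 libraries against 2 such a test cannot go below 0.2.

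Of the core subunits, SUZ12, the scaffold of the complex, came nearest to the threshold. It measured 190.3, 183 and 171 CPM with USP17 siRNA and 144 and 157 CPM in the controls, with no overlap. The difference of 0.27 ± 0.08 (SE) on the log2 scale did not pass (adjusted p 0.0634, edgeR). DESeq2's Wald test called it (adjusted p 0.0372), as did edgeR without siNT (adjusted p 0.0278). The partial copy SUZ12P1 had 605 to 762 reads per library and a log2 fold change of 0.06, and reads shared by the copies make the level of SUZ12 less certain.

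EED, which binds trimethylated H3K27, measured 41.7, 44.0 and 37.8 CPM, compared with 36.6 and 34.3 CPM in siL2 and siNT. The lowest USP17 library, siSMPLT, lay just above the higher control. The log2 fold change of 0.22 ± 0.09 (SE) did not pass (adjusted p 0.169, edgeR).

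The histone-binding subunits RBBP4 and RBBP7, which also serve other chromatin complexes, were the most abundant members. RBBP4 stood at 404, 386 and 383 CPM with USP17 siRNA and 379 and 395 CPM in the controls, a log2 fold change of 0.02 ± 0.06 (SE) whose sign turned in some alternatives. RBBP7 stood at 393, 399 and 368 CPM against 371 and 361 CPM (0.08 ± 0.07, SE). Both overlapped between the groups in CPM, and neither passed (adjusted p 0.899 and 0.484, edgeR). In TPM, RBBP7 did not overlap, at 288 to 312 with USP17 siRNA and 276 to 286 in the controls. RSEM, which shares out reads that map to several places, assigned RBBP4 21.0% to 23.4% more reads than the unique counts held. Those counts leave out reads mapped to several places and ambiguous reads. The level of RBBP4 thus depends on the counting, and which kind of read made the difference was not tested. The processed pseudogene RBBP4P1 had 38 to 47 reads, and EZH2P1 0 to 2.

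Among the accessory subunits, MTF2 was the one member with a negative fold change. MTF2 brings PRC2.1 to unmethylated CpG-rich DNA, and its gene lies at chr1:93079235-93139081 on the plus strand. It measured 88.0, 103 and 97.2 CPM in siIDT, sino4 and siSMPLT and 117 and 113 CPM in siL2 and siNT, so that every USP17 library lay below both controls. Its log2 fold change of -0.26 ± 0.08 (SE) did not pass (adjusted p 0.0822, edgeR). It kept this direction in every alternative run. The means in TPM were 40.7 ± 2.51 (SD, n = 3) and 50.5 ± 0.368 (SD, n = 2).

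PHF19, the other Tudor-domain subunit of PRC2.1 on the list, varied most between the controls. It measured 71.6, 82.5 and 74.0 CPM with USP17 siRNA, and siL2 (60.6 CPM) and siNT (79.3 CPM) lay on either side of siIDT and siSMPLT. The log2 fold change was 0.12 ± 0.12 (SE; adjusted p 0.562, edgeR), and the controls differed by 0.39 from each other. It was -0.06 without siL2.

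The PRC2.2 subunits overlapped between the groups. JARID2, which binds DNA and RNA and helps PRC2 onto its targets, stood at 119.9, 111 and 102 CPM, compared with 91.1 and 104 CPM for siL2 and siNT (log2 fold change 0.19 ± 0.10, SE; adjusted p 0.229, edgeR). AEBP2, a zinc finger subunit that stimulates the enzyme, stood at 146, 143 and 138 CPM against 125 and 149 CPM (0.05 ± 0.09, SE; adjusted p 0.726, edgeR). In both genes siL2 was the lowest library. AEBP2 was -0.07 without siL2.

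**Figure D2:**
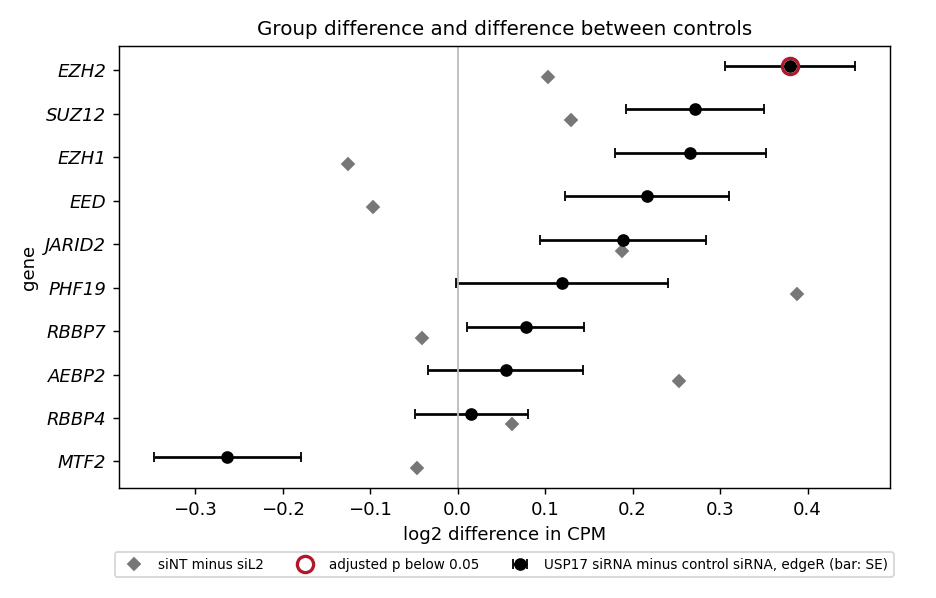
Log2 differences in CPM for the 10 members: circles with bars give the edgeR log2 fold change of USP17 siRNA over control siRNA ± SE, diamonds the difference siNT minus siL2, and a red ring an adjusted p below 0.05. EZH2 at 0.38 is ringed, MTF2 at -0.26 lies on the other side of 0, and for PHF19, AEBP2 and RBBP4 the difference between the controls was larger than that between the groups.

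The USP17 libraries were also set singly against the mean of the controls. EZH2 lay 0.38, 0.43 and 0.34 above it on the log2 scale in siIDT, sino4 and siSMPLT, and EZH1 0.17, 0.30 and 0.33. SUZ12 lay 0.34, 0.28 and 0.19 above it, and MTF2 at -0.39, -0.16 and -0.25. Among the USP17 libraries, siIDT thus had the lowest value of EZH1 and of MTF2 and the highest of SUZ12. These differences share the same controls, and each siRNA has a single library.

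Per length the members spanned a wide range. Mean TPM over the 5 libraries was 430.3 for RBBP4, 295 for RBBP7, 83.2 for AEBP2, 71.5 for EZH2, 62.3 for PHF19, 59.5 for SUZ12, 44.6 for MTF2, 35.8 for EZH1, 34.0 for EED and 26.3 for JARID2. The ranges of RBBP4 and RBBP7 did not overlap, nor did those of RBBP7 and AEBP2. All other neighbours in this order overlapped. In this unit EZH2 stood at 81.0, 80.4 and 77.5 TPM in siIDT, sino4 and siSMPLT and 56.4 and 62.0 TPM in siL2 and siNT.

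The balance of accessory forms was read as ratios of TPM. MTF2 to PHF19 was 0.604, 0.658 and 0.622 with USP17 siRNA and 1.02 and 0.75 in siL2 and siNT, lower with no overlap (two-sided exact permutation p of 0.2, the smallest possible, and 0.8 after adjustment over 4 ratios). The sum of MTF2, PHF19 and PHF1 over that of JARID2 and AEBP2 was 1.01, 1.12 and 1.17 against 1.14 and 1.19, which overlapped (exact permutation p of 0.4, adjusted 0.8). RBBP4 to RBBP7 was 1.45, 1.34 and 1.49 against 1.45 and 1.58 and overlapped too (exact permutation p of 0.6, adjusted 0.8). MTF2 to EZH2, a ratio chosen after its values were seen and therefore not tested, was 0.467, 0.528 and 0.54 against 0.891 and 0.82. The values of MTF2 relative to EZH2 were thus lower in all 3 USP17 libraries.

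**Figure D3:**
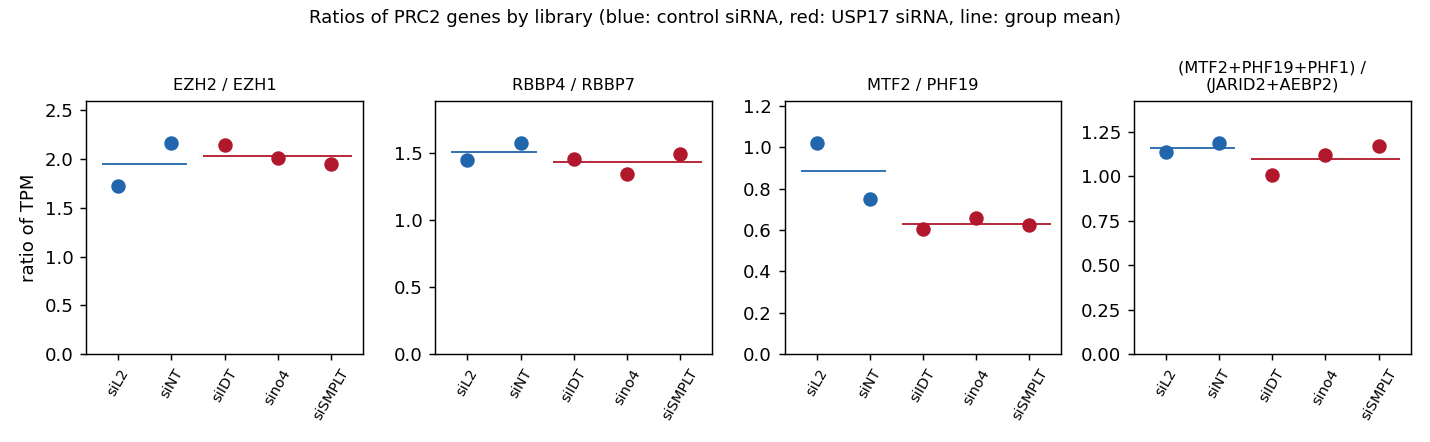
Ratios of TPM between PRC2 subunits in each library, by group (vertical axis: ratio). MTF2 to PHF19 lies lower in all 3 USP17 siRNA libraries (0.604 to 0.658) than in the controls (0.75 and 1.02), while EZH2 to EZH1, RBBP4 to RBBP7 and the ratio of the accessory forms overlap between the groups.

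RSEM's abundance-weighted transcript length, which moves when the mix of isoforms moves, separated the groups for 3 of the 10 members, against 19.0% of all tested genes. It was 2551 to 2577 bases for EZH2 with USP17 siRNA and 2584 to 2594 bases in the controls. MTF2 had 3402 to 3518 against 3253 to 3378 bases, and SUZ12 4436 to 4442 against 4416 to 4423 bases. These gaps are small beside the lengths, and no test was run on them.

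The start of EZH2 and that of MTF2, the members with the largest differences in each direction, are shown for their sequence. Each window runs from 250 bases before to 30 bases after the start site in the RefSeq annotation (GRCh38.p14), with words of an E2F site in capitals. The EZH2 window is chr7:148884262-148884541 on the minus strand, and that of MTF2 is chr1:93079033-93079312 on the plus strand, where the word is TTCCCGC read on the opposite strand.
EZH2: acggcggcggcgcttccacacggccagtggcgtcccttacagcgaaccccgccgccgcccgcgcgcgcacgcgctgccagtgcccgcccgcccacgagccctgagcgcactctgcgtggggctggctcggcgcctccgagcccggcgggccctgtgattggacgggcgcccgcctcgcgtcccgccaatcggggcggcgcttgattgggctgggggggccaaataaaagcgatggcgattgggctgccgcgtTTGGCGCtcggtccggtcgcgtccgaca
MTF2: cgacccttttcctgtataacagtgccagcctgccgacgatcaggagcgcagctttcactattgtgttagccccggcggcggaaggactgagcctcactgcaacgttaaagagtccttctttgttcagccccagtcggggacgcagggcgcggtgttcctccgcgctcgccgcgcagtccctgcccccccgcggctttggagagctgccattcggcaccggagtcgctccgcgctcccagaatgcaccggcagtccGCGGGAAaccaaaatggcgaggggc

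The words searched for E2F on both strands were TTCCCGC (as at MTF2), TTGGCGC (as at EZH2), TTGCCGC as a close variant and TTCGCGC as another, in the windows from 250 bases before to 50 after each start. They occurred in 9 of 15 member windows, against 18.9% of 16220 windows of tested genes. These 9 belong to 8 of the 10 genes, and no share per gene was computed over all genes. The windows of RBBP4 overlap and hold the same E2F words, so these are counted more than once. CCAAT on either strand occurred in 10 of 15 member windows, 4 times in that of EZH2 shown and not in that of MTF2, against 35.1%. The E-box word CACGTG occurred in 1 member window, against 9.22%. The member windows were richer in GC (median 73%) than those of tested genes (64.7%), and E2F words are themselves rich in GC. A second RefSeq start of EZH2 holds none of these words. A match is a description of these letters and not of binding.

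The 3' UTRs were read for 3 sequences of 7 bases that an earlier look at these libraries had picked for the shift of the genes that hold them, so their shifts are no independent evidence. Genes with ATCACTC had a median log2 fold change of -0.11 and those with TCACTCA of -0.08, against -0.005 without, and those with GATCATC of 0.09. No PRC2 member holds ATCACTC or GATCATC in its longest 3' UTR. EZH1 and RBBP4 hold TCACTCA once each, and their log2 fold changes were 0.27 and 0.02. EZH2 and MTF2 hold none of the 3 in that 3' UTR, which has only 262 bases for EZH2. The part of these words in the fold changes was not tested. The sites below are from GENCODE release 29 (GRCh38), with the word in capitals, at chr17:42700831-42700860 on the minus strand in EZH1 and chr1:32681530-32681559 on the plus strand in RBBP4. Those of PHC1 and SCMH1, PRC1 subunits described next, lie at chr12:8940506-8940535 on the plus and chr1:41027524-41027553 on the minus strand.
EZH1: ctcacatgctcTCACTCAccacactggagg
RBBP4: acattcatcctTCACTCAgtgcatatgtga
PHC1: gaaagaaaaaaATCACTCcaatagtattga
SCMH1: gccttgaccacATCACTCcatatggggagg

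Other PRC2 subunits were read beside the members. PHF1, the third Polycomb-like subunit, had a log2 fold change of 0.14, EPOP of -0.10, LCOR of -0.003 and LCORL of -0.18, and none of these 4 was called. The groups overlapped for each, the signs of LCOR and LCORL turned in some alternatives, and LCORL was called lower without siL2 (-0.42, adjusted p 0.0168, edgeR). EZHIP, an inhibitor of PRC2, had 0 reads in every library, which allows up to 0.0849 to 0.0938 CPM.

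PRC1, which reads H3K27 methylation through its CBX subunits and places ubiquitin on histone H2A, had 4 of 27 subunits called. This is 14.8%, against 10.5% of all tested genes. The 4 lay 2 in each direction, and the median log2 fold change of the list was 0.09. PHC3 rose from 137 and 135 CPM in siL2 and siNT to 175, 167 and 167 CPM. In TPM PHC3 overlapped, at 36.8 to 43.4 with USP17 siRNA and 37.4 and 32.4 in siL2 and siNT. BCOR, of a variant PRC1, rose by 0.33 on the log2 scale. PHC1, a paralog of PHC3, fell from 22.0 and 17.0 CPM to 13.2, 13.8 and 12.0 CPM, and SCMH1 fell by 0.65 on the log2 scale. Their adjusted p in edgeR's test was 0.0253, 0.0326, 0.0296 and 0.0244 in that order. Both genes that fell hold ATCACTC in the sites shown. This word was picked in these libraries for the shift of its carriers, so the match is no independent evidence. Of 8 carriers of this word on the PRC2 and related lists 3 were called, all lower, and 5 were not. Those 5 were E2F2 (-0.35), FOXK2 (-0.32), LCOR (-0.003), CREBBP (0.05) and HCFC1 (0.24). Of the 122 genes on these lists with a 3' UTR searched, 5 were called lower, and of all tested genes 5.82% were. No share called was computed for all carriers, and the part of this word was not tested. No PRC1 subunit was called without siIDT or without sino4, and 7 were without siNT.

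The enzymes that remove the marks were read next. KDM6A, an H3K27 demethylase, rose from 52.9 and 51.5 CPM in siL2 and siNT to 65.9, 68.2 and 65.5 CPM (log2 fold change 0.35, adjusted p 0.0253, edgeR), while KDM6B had 0.12. KDM6A lost its call without any one of the USP17 libraries. The complex that takes ubiquitin off H2A, PR-DUB, had 4 of 11 subunits called (36.4%, against 10.5% of all tested genes). ASXL3 (0.82) and OGT (0.51), a sugar transferase, rose, and KDM1B (-0.76) and MBD6 (-0.38) fell. OGT and ASXL3 hold GATCATC, also picked in these libraries, as do 10 further genes of the lists that were not called. The log2 fold changes of those 10 ran from -0.35 (E2F2) to 0.47 (CDKN2A). Of the 122 genes searched on the lists, 16 were called higher. KDM1B holds ATCACTC, and MBD6 holds neither. Without sino4 the call of ASXL3 alone was left (adjusted p 0.0337, edgeR), with KDM1B at 0.0503 and OGT at 0.0589. MBD6 lost its call without any one of the USP17 libraries and without siNT.

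Partners of RBBP4 and RBBP7 in other complexes had 2 of 27 tested genes called, 7.41% against 10.5% of all tested genes. The 2 were the chromatin remodellers CHD3 (0.65) and SMARCA1 (0.51), both higher. SMARCA1 lost its call without sino4 (adjusted p 0.0644, edgeR). Enzymes that place active histone marks had 3 of 12 called (25%), all higher, with a median of 0.22. Of all tested genes 4.64% were called higher. KMT2D, an H3K4 methyltransferase, rose from 184 and 187 CPM to 265, 257 and 275 CPM (0.52, adjusted p 0.00581, edgeR). EP300, which acetylates H3K27, rose by 0.36 and KMT2C by 0.26. In TPM KMT2C overlapped, at 37.9 to 44.5 with USP17 siRNA and 38.4 and 36.4 in siL2 and siNT. Only KMT2D kept its call without each of the USP17 libraries in turn, and KMT2C lost it without siNT as well. Of the E2F and RB family 1 of 10 was called (10%, against 10.5% of all tested genes), E2F7 (0.37), a repressor among the E2F factors. E2F7 was not called once siIDT (adjusted p 0.0663, edgeR) or sino4 (0.114) was left out. The count was 5 without siNT. E2F1 had 0.36 without passing (adjusted p 0.112, edgeR).

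Reported targets of PRC2 had 4 of 19 tested genes called higher and 1 lower, and 12 more were too low to test. In either direction 26.3% of those tested were called, against 10.5% of all tested genes. HOXA9 rose from 2.60 and 2.12 CPM in siL2 and siNT to 6.98, 8.74 and 7.32 CPM, a log2 fold change of 1.70 (adjusted p 0.00335, edgeR). HOXA10 rose by 1.69 at a level near 1 CPM, HOXD10 by 0.80 and the ligand gene WNT5A by 0.38. HOXA9 alone on this list was called without siIDT and without sino4, and 8 genes were called without siL2. TIMP3, named after its values were seen, fell by 1.40 at 0.31 to 0.406 CPM against 0.642 and 1.22 CPM (adjusted p 0.046, edgeR). It was not called with limma-voom (adjusted p 0.0586), with RSEM counts (0.0746, edgeR), or without siIDT, sino4, siSMPLT or siNT (0.0859 to 0.191, edgeR). CDKN2A, a textbook PRC2 target, stood at 8.41 CPM in siL2 and 22.7 CPM in siNT. In siIDT, sino4 and siSMPLT it stood at 20.2, 23.1 and 21.4 CPM. Its log2 fold change of 0.47 did not pass (adjusted p 0.38, edgeR). The median of the list was 0.17.

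**Figure D4:**
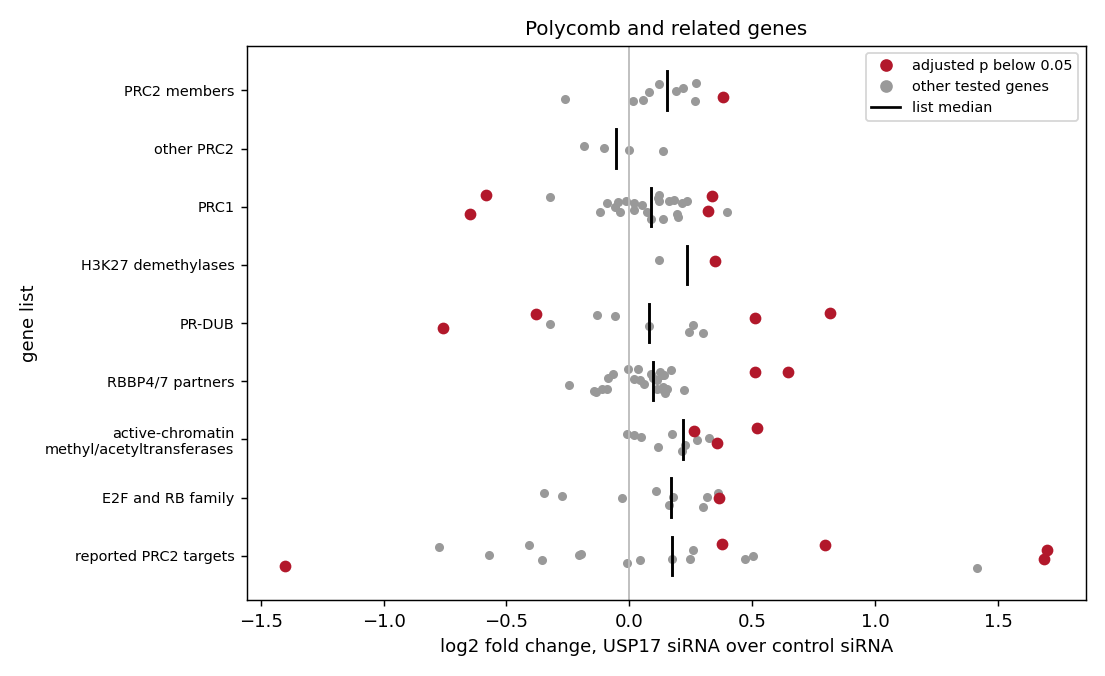
Log2 fold change (USP17 siRNA over control siRNA, edgeR) of each tested gene of the PRC2 members and 8 related lists, with black lines at list medians and red points for an adjusted p below 0.05. Among the members EZH2 alone is red, and HOXA9 and HOXA10 lie farthest to the right among the reported PRC2 targets.

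Among 6416 genes at or above 5 in log2 CPM, those whose centred log2 CPM over the 5 libraries lay nearest to that of EZH2 were SKA3, HNRNPUL2, E2F7, ZNF26 and HP1BP3, at Euclidean distances of 0.0431 to 0.0602. E2F7 measured 138, 143 and 137 CPM with USP17 siRNA and 107 and 109.5 CPM in the controls. The log2 fold changes of the 5 were 0.34 to 0.38, all called, and like EZH2 all 5 lost the call without siIDT and without sino4. Without siSMPLT, SKA3 (adjusted p 0.0521, edgeR) and ZNF26 (0.0764) lost it, while HNRNPUL2, E2F7 and HP1BP3 kept it as EZH2 did. The 5 were picked for likeness over these same libraries, so shared fold changes and calls are no independent evidence. Distances over 5 libraries rest on few values. Of the other members SUZ12 was the nearest to EZH2, at rank 157 (distance 0.151), and MTF2 the farthest, at rank 5382 (0.73).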

How the data were processed

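Poly(A) RNA was measured in 5 libraries. Per the submitters' processing notes, the tools were bcl2fastq 2.20, STAR 2.7.1a and RSEM 1.3.2, with GRCh38 as the genome. Neither the annotation release nor the read layout or strand setting is given in the sources used here. Per gene, the deposited count tables hold whole-number read counts, and the column of the gene's own strand, which held 18.7 to 19.9 reads for each read on the other strand, was used. The deposited RSEM tables hold expected counts and TPM, both computed by the authors, and a transcript length. The rows that name no gene (reads unmapped, mapped to several places, ambiguous or unannotated), 22.8% to 24.4% of all reads, were left out.

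Counts were tested in R 4.3.3 with edgeR 4.0.16 (filterByExpr with minimum count 10 and minimum total 15, TMM, two-sided quasi-likelihood F test), and p-values were adjusted by Benjamini-Hochberg over all 16341 genes at 0.05. The script was tested on simulated data. Library values in CPM are scaled to TMM library sizes, and log2 values of single libraries use a prior count of 2. Alternatives were DESeq2 1.42.0 (size factors, Wald test), limma-voom (limma 3.58.1), no filter, a minimum count of 50, RSEM expected counts rounded to whole numbers, counts without regard to strand, and leaving out each library. Ratios were compared by exact permutation in Python 3.11.15 with scipy 1.17.1.

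Symbols were found for 60437 of 60651 identifiers, among them all 203 on the lists. Named genes are all members, all genes of lists of up to 5, up to 4 called genes of each other list with the smallest p, pseudogenes of members and the 5 genes nearest to EZH2. E2F1, CDKN2A, TIMP3, the cell type markers and the uncalled carriers of 3' UTR words were named outside this rule. The members and lists were chosen with earlier results of these data known.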

Additional observations from a re-analysis of the deposited data

How the results depend on the processing

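EZH2 passed in all 7 alternatives that kept every library (log2 fold change 0.37 to 0.40, edgeR, DESeq2 or limma) and in 3 of 5 that left 1 out. The count of called members was 2 with DESeq2's Wald test (EZH2 and SUZ12) and 0 to 2 when 1 library was left out, and that of called PRC1 subunits was 0 to 7. With 1 control left, it is taken to vary as the USP17 libraries do. Over all genes, leaving out 1 library gave calls from 130 to 2633, against 1710. Signs turned for RBBP4 without regard to strand (-0.0022) and with 1 library left out (-0.0153 to 0.0466), likewise for PHF19 (-0.0615 to 0.326), AEBP2 (-0.0665 to 0.187), LCOR (-0.21 to 0.24) and LCORL (-0.42 to 0.10), and for LCOR with limma-voom (0.013) and at a minimum count of 50 (0.0038). The ratio of accessory forms was lower without overlap in read counts (log2 -0.20), which are not per length. Of 23 other called genes that are named, 16 lost the call without siIDT, 19 without sino4, 10 without siSMPLT and 3 each without siL2 and without siNT. With every library kept, 2 each lost it with no filter (KMT2C and ZNF26), with RSEM counts (MBD6 and ZNF26) and without regard to strand (KMT2C and ZNF26). The cause of these losses was not tested. No paired analysis was possible because the labels carry no replicate numbers. All alternatives for lists and named genes outside PRC2 and PRC1 were added after the data were seen.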
